A study of Mus musculus with 2 samples.

Results

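Carbonic anhydrases are zinc enzymes that interconvert carbon dioxide and water with bicarbonate and protons, and isozymes in the cytosol, in mitochondria and at the cell surface let cells and epithelia move acid and bicarbonate. The transcripts of 10 carbonic anhydrase genes, Car2, Car3, Car4, Car7, Car8, Car9, Car11, Car12, Car13 and Car14, were examined on 2 oligonucleotide arrays, out of 18193 genes represented there. The members were taken as all 22 probe sets, the groups of short oligonucleotides that each read 1 transcript, whose platform annotation named exactly 1 of these genes. The family was chosen by the Car4 values, which were higher in the mutant on both its probe sets, so the ratios below are a description and were not tested.

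The tissue was the gonad-mesonephros complex, that is the fetal gonad together with the transient kidney beside it, dissected from XX mice at E12.5, counted in days of embryonic development. One group was wild type, with no strain given, and the other was homozygous for Gata4ki on a strain given as C57Bl/6. Gata4ki is a germline knock-in allele whose GATA4 protein, a transcription factor of the somatic gonad, has weakened binding to its FOG cofactors. Each group was 1 array that carried total RNA of 6 pairs of complexes, so, with each array taken as 1 pooled sample, the spread between embryos is unknown and no p-value or SD between animals can be given. The series' design text counts 6 control and 6 mutant samples, which differs from the 2 arrays described here. A ratio from such whole tissue does not tell fewer cells of a type from less RNA per cell, nor the gonad from the mesonephros. Wild type and mutant gave signals of 1461 and 1475 for Wt1 and of 218.7 and 276.7 for Nr5a1, genes of the gonad. The lists used here also hold Wt1 as a coelomic epithelium gene and Nr5a1 as an adrenal and steroidogenic gene. Signals were 735.8 and 643.9 for Cdh16 and 92.4 and 83.1 for Pax8, genes of the mesonephric tubules. Genes of both tissues were thus above the floor, defined below, on both arrays.

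Car4 is the member by which the family was chosen. The letters around its gene start are shown because GATA4 is a DNA-binding factor whose family recognises the letters GATA. The window of 300 bases, from 250 before the annotated start to 50 after it, lies on the plus strand at chr11:84957504-84957803 (RefSeq, GRCm38.p6), and capitals mark each GATA on that strand; its complement TATC does not occur.
Car4: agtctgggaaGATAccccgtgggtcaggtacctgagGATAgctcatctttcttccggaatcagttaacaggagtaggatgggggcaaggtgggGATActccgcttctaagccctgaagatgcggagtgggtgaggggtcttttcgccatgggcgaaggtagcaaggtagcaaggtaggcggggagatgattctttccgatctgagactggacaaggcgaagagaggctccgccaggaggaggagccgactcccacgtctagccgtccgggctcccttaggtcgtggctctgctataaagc

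The Car4 window held GATA at 3 places, which began at -240, -214 and -157 relative to the gene start. On either strand, 57.9% of 32851 such windows across the genes held GATA. The longer forms searched were AGATAA and, as variants of its first and last letter, AGATAG, then TGATAA, and last TGATAG, all of which contain GATA. None was found on either strand of the Car4 window, while 29.8% of all windows held at least 1 of them. RefSeq windows were found for 6 of the 10 members, namely Car4, Car7, Car9, Car11, Car12 and Car14, and 9 windows in all since some genes have several starts. GATA occurred for 4 of these 6 members, Car4, Car7, Car9 and Car11, and a longer form for 3, Car7, Car9 and Car11. These counts take a match in any window of a gene, and Car7 and Car11 have several windows. They are thus not comparable with the shares above, which are per window. These matches describe letters and are no measure of binding.

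Of the 22 member probe sets, 12 were above the floor on both arrays and 10 on neither. The floor was a signal of 24.0, the median of all signals on both arrays, and lower values were not read as levels of a gene. Those 12 probe sets covered 9 of the 10 genes, and Car9 was not measured. Where a gene had several probe sets, the one brightest on average over both arrays stood for it, and a log2 ratio is the mutant minus the wild type. Car4 and Car2 exceeded wild type by 2-fold or more, and no member was 2-fold lower. Across all 12300 measured genes, 0.846% were at least 2-fold higher and 0.537% at least 2-fold lower. The other 7 measured members lay within 1.5-fold, as 93.3% of all measured genes did. Ratios were above 0 for 6 of the 9 members, against 51.4% of all measured genes. The member median was 0.15 on the log2 scale and that of all measured genes 0.01. Car4, by which the family was chosen, is part of the 2-fold count, the count above 0 and the median, so none of these measures an excess. The member median was lowest, 0.10, with a floor at the 60th percentile, where Car7 was not measured and 8 members remained. It was highest, 0.41, when suffixed probe sets, which can read more than 1 transcript, were left out and 6 members remained.

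**Figure D1:**
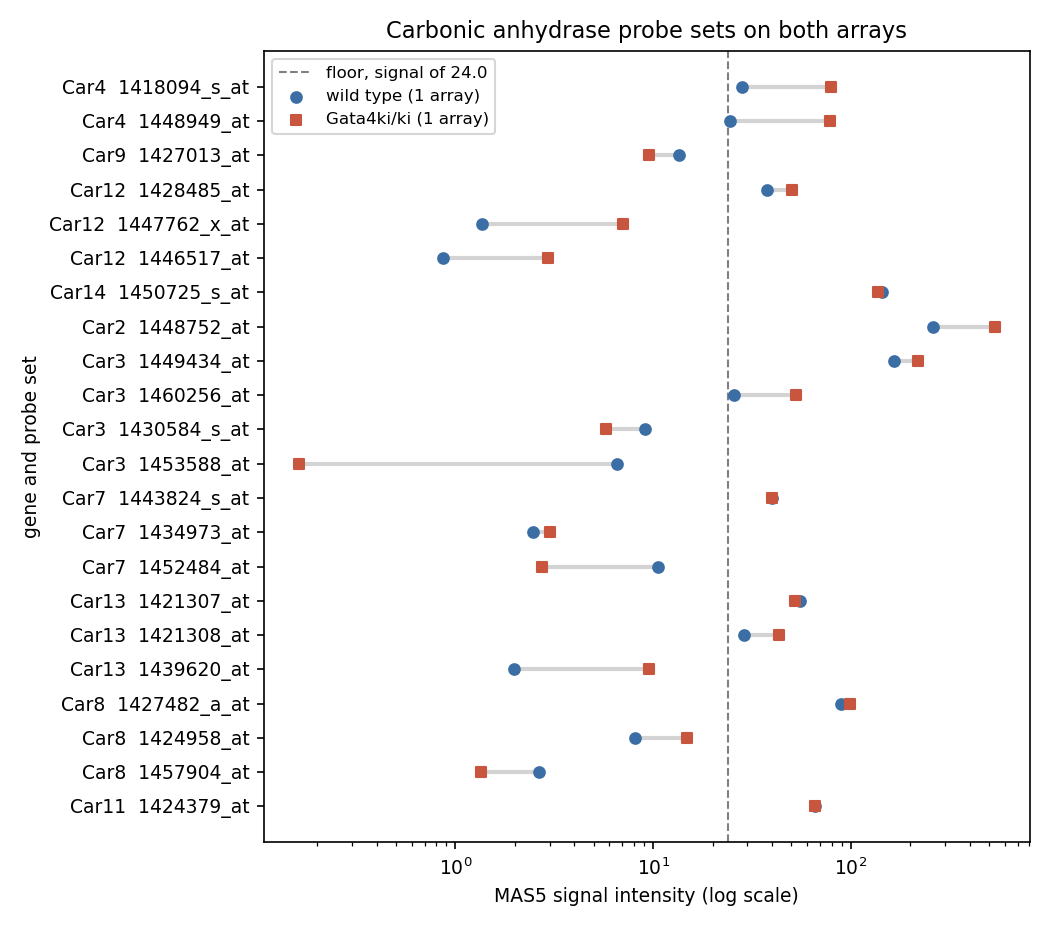
Signal intensity (log axis) of each of the 22 carbonic anhydrase probe sets on the wild-type array (circles) and the Gata4ki/ki array (squares), with the floor at 24.0 as a dashed line. Both Car4 probe sets start just above the floor in wild type and reach 78.3 and 79.2 in the mutant. Car2 goes from 261.0 to 535.7, and points left of the line are not read as levels.

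The enzymes at the cell surface were Car4, Car9, Car12 and Car14, and 3 of these 4 were measured. Car4 is held on the outer face of the plasma membrane by a lipid (GPI) anchor and is known from capillary endothelium and kidney tubules. Its brighter probe set gave signals of 28.1 (wild type) and 79.2 (mutant), a log2 ratio of 1.50 or 2.82-fold. The other gave 24.6 and 78.3, a ratio of 1.67 or 3.19-fold. Both probe sets thus read a wild-type signal close to the floor and a mutant signal well above it. They read the same RNA, so their likeness covers probe noise and not differences between embryos.

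The size of the Car4 ratio depended on how signals near the floor were handled. Across 3513 probe sets of like signal the robust SD of the log2 ratio was 0.43. Among probe sets with a mean signal under 100, 1.54% exceeded wild type by 2-fold or more. With the floor at the 60th percentile, a signal of 48.5, wild type fell under it and the Car4 ratio became a bound of at least 0.71. With a pseudocount equal to the floor added to every signal it was 0.99, just under 2-fold. Without suffixed probe sets it was 1.67.

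Car12 and Car14 are transmembrane enzymes with the active site outside the cell, and neither was apart by 1.5-fold. Car12 gave 37.5 and 50.1, a ratio of 0.42, which became a bound of at least 0.05 with the higher floor. Its other 2 probe sets were under the floor on both arrays. Car14, known from the kidney tubule, gave 144.4 and 137.0 on its single probe set, a ratio of -0.08 with a robust SD of 0.25 among probe sets of like signal. Car9, a surface enzyme induced by hypoxia, gave 13.4 and 9.49, under the floor on both arrays. The 3 measured surface enzymes had ratios from -0.08 to 1.50, and Car4 was the single one of them past 2-fold.

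Among the 4 cytosolic enzymes, all of which were measured, Car2 was 2-fold higher and the other 3 were not. Car2 is a fast and widely expressed isozyme, abundant in red cells, kidney tubules and osteoclasts. Its single probe set gave 261.0 for wild type and 535.7 for the mutant, a log2 ratio of 1.04 or 2.05-fold. The robust SD of the ratio was 0.17 over 3206 probe sets of like signal, and 0.228% of probe sets with a mean signal of 100 or more were at least 2-fold higher. The floor alternatives left the Car2 ratio at 1.04, and the pseudocount gave 0.97, which is under 2-fold. The Car2 ratio thus lay close to the 2-fold limit in each setting run.

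**Figure D2:**
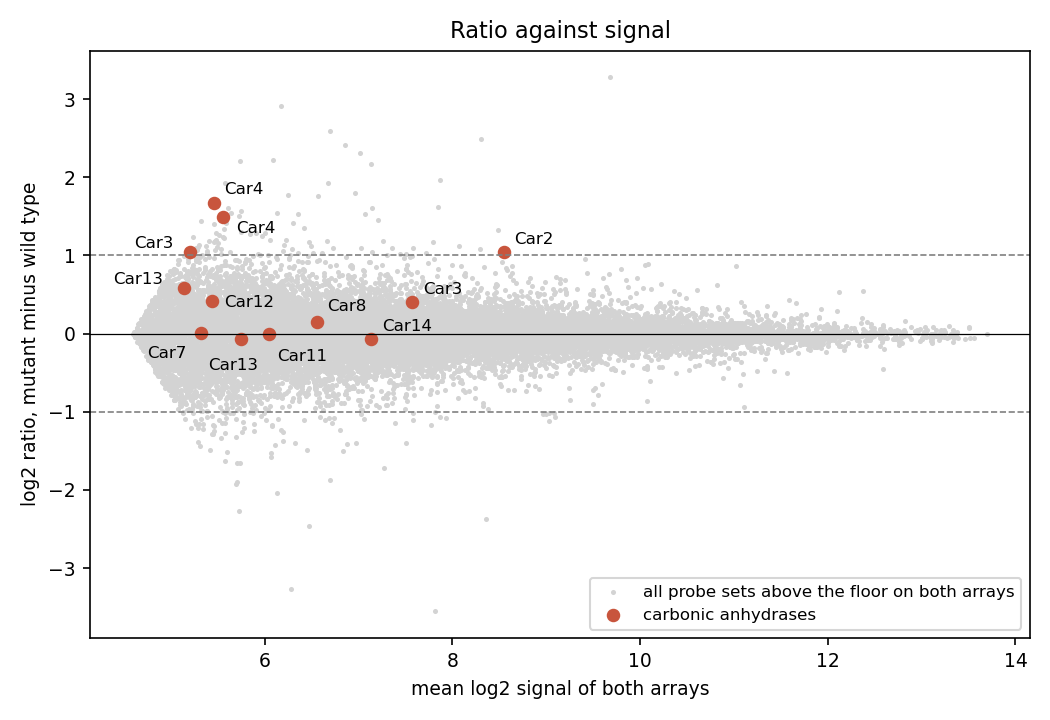
Log2 ratio of mutant to wild type against the mean log2 signal of both arrays, for all probe sets with 1 gene symbol above the floor on both arrays (grey) and the 12 carbonic anhydrase probe sets (red). Dashed lines mark 2-fold; Car4, at 1.50 and 1.67, lies where the grey cloud is wide and Car2, at 1.04, where it is narrow.

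Car3, a slow isozyme known from skeletal muscle and fat, gave different ratios on its 2 measured probe sets. The brighter gave 165.5 and 219.1, a ratio of 0.40, with a robust SD of 0.22 at that signal. The dimmer gave 25.7 and 52.9, a ratio of 1.04 or 2.06-fold, with a robust SD of 0.42. Both were higher in the mutant, and the median over them was 0.72. The 2 remaining Car3 probe sets were under the floor on both arrays. Including this dimmer Car3 probe set, 4 of the 12 measured member probe sets were at least 2-fold higher, against 0.753% of 21238 measured probe sets. Those 4 came from 3 genes and include both Car4 probe sets, by which the family was chosen, so the count is no measure of an excess. Among all measured probe sets with a mean signal under 100, as for Car4 and the dimmer Car3 probe set, the share was 1.54%.

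Car13, a cytosolic isozyme of broad expression, had probe sets that disagreed in sign. The brighter gave 55.0 and 52.5, a ratio of -0.07, and the dimmer gave 28.8 and 43.2, a ratio of 0.59. With the median over probe sets the ratio was 0.26, so no direction is given for Car13. Car7, a cytosolic enzyme best known from the brain, gave 39.9 and 40.1, a ratio of 0.01, and its other 2 probe sets were under the floor. The RefSeq table of GRCm38.p6 places Car13, Car1, Car3 and Car2 in this order in a cluster on chromosome 3, with no other protein-coding gene between them. Within that cluster the brightest probe sets gave -0.07 for Car13, 0.40 for Car3 and 1.04 for Car2, and Car1 was under the floor on both arrays with 8.05 and 6.10.

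Car8 and Car11 encode carbonic anhydrase-related proteins, which keep the fold but lack the catalytic activity. Car8 is best known from cerebellar Purkinje cells and binds the IP3 receptor. It gave 89.4 and 99.3, a ratio of 0.15. Car11 gave 65.9 and 65.8, a ratio that rounds to 0. Neither differed by as much as the robust SD at its signal, 0.30 for Car8 and 0.36 for Car11.

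The 6 carbonic anhydrase genes outside this set were nearly all under the floor. Car1, a red cell isozyme, the mitochondrial Car5a and Car5b, the secreted Car6 and the related protein Car10 had no probe set above the floor on any array. Car15, a GPI-anchored enzyme like Car4, gave 33.5 and 24.5, a ratio of -0.45, with both signals close to the floor. The robust SD was 0.40, a spread cut short because only probe sets above the floor on both arrays enter it.

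Carbonic anhydrases act with transporters that carry bicarbonate, protons and lactate across the membrane, and of these 1 was 2-fold apart. Among 28 genes listed, such transporters with some associated genes, 26 had a probe set here and 14 were measured. Of these 1 was at least 2-fold higher and none was 2-fold lower. Their median log2 ratio was -0.02. The higher one was Slc4a1, the anion exchanger of the red cell membrane, with 48.2 and 128.9 on the probe set that stood for it, a ratio of 1.42. Its other probe set gave 55.0 and 106.1, a ratio of 0.95, so without suffixed probe sets no transporter was 2-fold apart. Slc26a6, a chloride and bicarbonate exchanger, gave 62.0 and 41.4, a ratio of -0.58. Slc4a2, a widely expressed anion exchanger, gave 219.5 and 181.2, a ratio of -0.28. Slc4a4, a sodium bicarbonate cotransporter, gave 103.4 and 113.6, a ratio of 0.13.

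Of the 8 measured genes listed with the proton, lactate and ammonium transporters none reached 2-fold at this floor. That list also holds Bsg, Slc9a3r1 and Aqp1, which are not themselves such transporters. Slc16a7, a monocarboxylate transporter, was above the floor in wild type only, so its ratio is known only as -0.11 or lower. The others had ratios between -0.15 and 0.08, with Rhcg, an ammonium transporter, at -0.15 and Slc16a1, which exports lactate with protons, at -0.11. Bsg, the chaperone of the lactate transporters, gave 1443 and 1515, and Atp6v1a, a subunit of the vacuolar proton pump, gave 587.9 and 590.5.

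Car9 and Car12 are known targets of the hypoxia response, and other genes of that response went both ways. Of 12 hypoxia targets, all were measured and none was 2-fold apart on its brightest probe set, with 7 ratios above 0 and a median of 0.09. Adm, the vasodilator adrenomedullin, gave 138.4 and 70.1, a ratio of -0.98. Pfkfb3, a regulator of glycolysis, and Egln3, an oxygen sensor, were at 0.51 and 0.41. The other measured probe set of Egln3 was below 0. Ndrg1 probe sets ran from -1.15, past 2-fold, to 0.24, and those of Vegfa were at 0.24 and -0.31. Dimmer Pgk1 and Pdk1 probe sets reached 0.86 and 0.84.

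**Figure D3:**
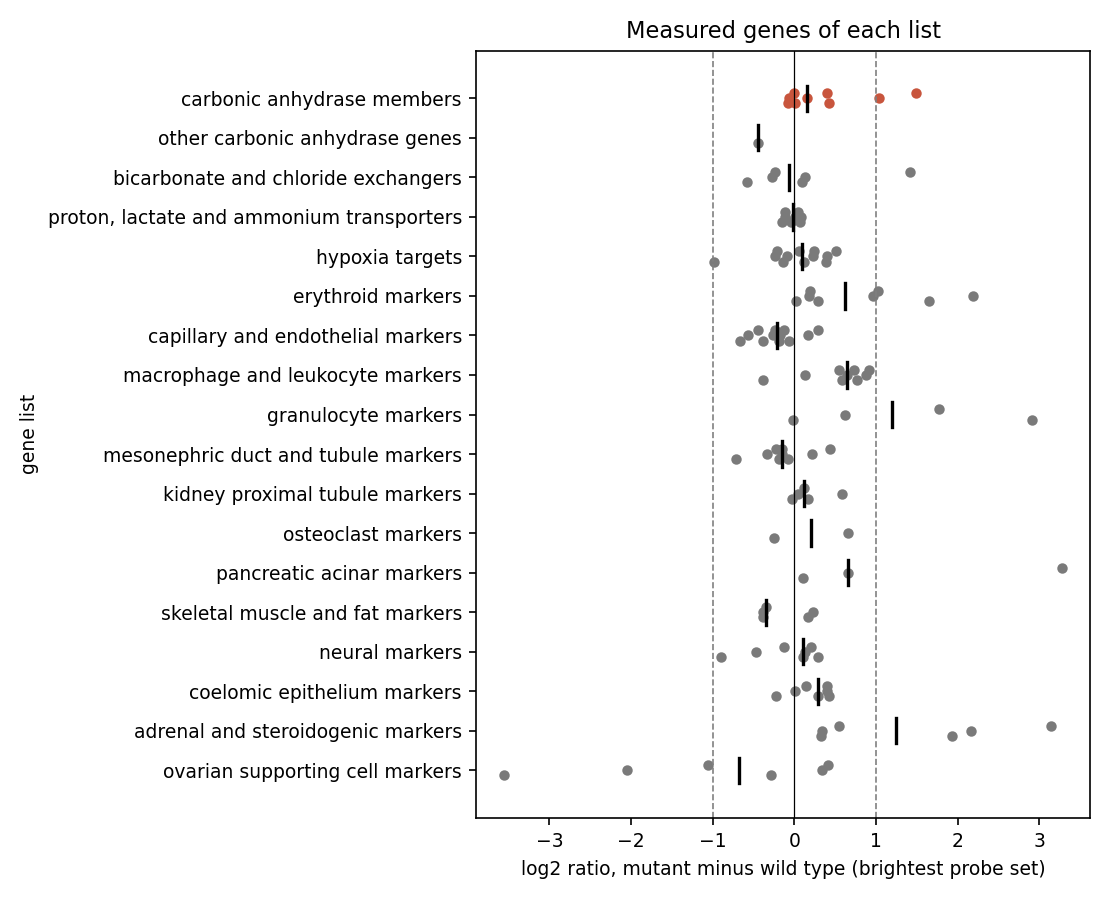
Log2 ratio of mutant to wild type for each measured gene of every list, taken on its brightest probe set with bounds at their value; black bars are list medians and dashed lines mark 2-fold. The carbonic anhydrases (red) have a median of 0.15, the endothelial markers lie mostly left of 0 with a median of -0.21, and the erythroid, macrophage and granulocyte markers lie mostly right of 0.

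Markers of the cell types in which Car2 and Car4 are known were measured on the same arrays. For the red cell lineage, 8 of 10 genes with a probe set were measured, all 8 had ratios above 0 and 3 were at least 2-fold higher, with a median of 0.63. The 3 were Klf1, Alas2 and Hemgn. Klf1, an erythroid transcription factor, gave 24.5 and 77.1, and Alas2, the first enzyme of haem synthesis in red cells, gave 68.6 and 140.1. Hemgn gave 20.2 and 109.8 with wild type under the floor, so its ratio is known only as 2.19 or higher. Epb42, among the 8 measured, was likewise a bound, at 0.02 or higher. The embryonic globins Hba-x and Hbb-bh1 gave 3964 and 4840, and 3144 and 3564. Hba-a1 and Rhag were under the floor on both arrays. Over all genes of the list with a probe set, values under the floor included as in the sums that follow, the signals came to 7342 (wild type) and 8935 (mutant). Probe sets have no common scale, so each such sum follows its brightest genes, here the embryonic globins, and is no amount of a cell type. The part of red cells in the Car2 and Slc4a1 values was not tested.

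Most endothelial markers had lower signals on the mutant array. All 12 were measured, 10 had ratios below 0, none was 2-fold apart, and the median was -0.21. Their signals summed to 3303 (wild type) and 2847 (mutant), and the brightest, Emcn and Sox17, gave ratios of -0.18 and -0.66. Gpihbp1, a GPI-anchored protein of capillary endothelium, gave 65.7 and 54.9. Kdr and Tie1 were the 2 with ratios above 0, at 0.29 and 0.16. The part of endothelial cells in the Car4 values was not tested. Among kidney proximal tubule markers, 5 of 7 were measured with a median of 0.12 and none 2-fold apart, the brightest being Lrp2 with 53.5 and 58.1 and Aqp1 with 44.8 and 46.2. Mesonephric duct and tubule markers had 2 of 9 ratios above 0, a median of -0.16 and none 2-fold apart. The brightest, Emx2 and Cdh16, were at -0.23 and -0.19, and the lowest was Calb1 at -0.72. Lhx1 and Cdh6 were above 0 at 0.21 and 0.43, while their dimmer probe sets were at -0.55 or lower and at -0.54. The dimmer Ret probe set was above 0, against -0.34 for the brighter.

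Most measured macrophage, granulocyte and steroidogenic markers had ratios above 0. Of 9 macrophage and leukocyte markers 8 had ratios above 0, none was 2-fold apart and the median was 0.65, with Csf1r at 626.0 and 1066 and Tyrobp at 179.1 and 268.4, while Cx3cr1 was at -0.39. Their summed signal was 1356 and 2161. Of 6 granulocyte markers 4 were measured and 2 were 2-fold higher, Prg2 with 26.3 and 198.1 and Mpo with 41.3 and 140.4, the median being 1.20 and the summed signal 161.8 and 493.1. Prtn3 and Epx were at 0.62 and -0.02, and Elane and Ctsg, defining proteases of granulocytes, were under the floor on both arrays. Of 8 adrenal and steroidogenic genes 6 were measured, with a summed signal of 463.9 and 1095. The median of the 6 was 1.24 or higher, since it lies between Cyp11a1 (0.55) and Star (1.93), both under the floor in wild type. Of the 6 measured genes 3 were 2-fold higher. Hsd3b1 gave 66.1 and 297.0. Cyp17a1, with 6.49 and 211.8, and Star, with 19.1 and 91.7, were bounds, wild type being under the floor. The other Star probe sets had ratios of at least 0.91 and of 0.17. The part of any of these cell types in the Car4 and Car2 values was not tested.

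Of 6 osteoclast genes 2 were measured, Acp5 at 0.66 and Ctsk at -0.25, with the more specific Calcr, Oscar, Dcstamp and Ocstamp under the floor. Skeletal muscle and fat genes, beside which Car3 can be read, had 5 of 9 measured and a median of -0.35. Tnni1 and Fabp4 were at 0.23 and 0.16 and Myl1, Des and Actc1 at -0.38, -0.38 and -0.35, while Myog, Acta1, Ckm and Adipoq were under the floor. Neural genes had 4 of 7 ratios above 0 and a median of 0.11, with Stmn2 and Erbb3 at 0.14 and 0.20 and Chga and Phox2a at -0.90 and -0.47. Coelomic epithelium genes had 6 of 7 ratios above 0 and a median of 0.29, with Wt1 at 0.01, Krt18 at 0.15 and Upk3b at -0.23. Of 7 pancreatic acinar genes 3 were measured. Cpa1, a carboxypeptidase, gave 262.7 and 2547, Cela1 was at 0.11 and Ctrb1 at 0.66 or higher, and Cpb1, Cela3b, Prss2 and Ptf1a were under the floor. Ovarian supporting cell genes had a median of -0.67, and 3 of 6 were 2-fold lower, Fst, Foxl2 and Irx3 at -3.55, -2.05 and -1.06, while Wnt4, the brightest, was at -0.28 and Rspo1 and Bmp2 were at 0.34 and 0.42.

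The genes outside the family whose signals on the 2 arrays lay nearest to those of Car4 were Mgarp, Zc3h6 and 2210407C18Rik. Mgarp, which encodes a mitochondrial protein, gave 28.5 and 80.5, at a distance of 0.03 on the log2 scale. Zc3h6, which encodes a zinc finger protein, gave 28.0 and 85.2 at a distance of 0.11, and 2210407C18Rik gave 29.1 and 85.0 at a distance of 0.12. Each had 1 measured probe set, and nearness over 2 arrays is a weak measure of likeness.

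**Figure D4:**
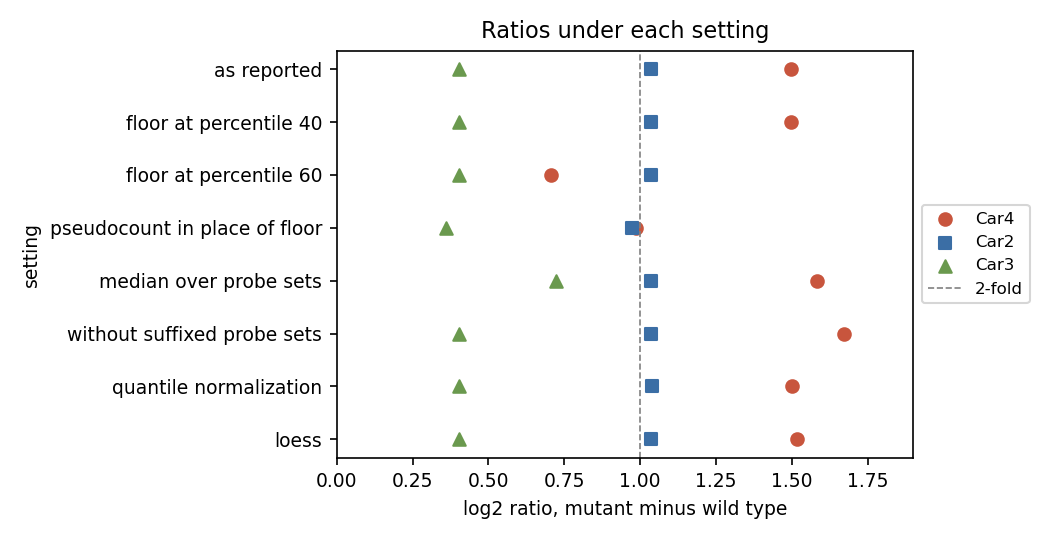
Log2 ratio of mutant to wild type for Car4 (circles), Car2 (squares) and Car3 (triangles) under the reported setting and 7 alternatives, with 2-fold as a dashed line. Car4 is known only as at least 0.71 with the higher floor and lies just under 2-fold with the pseudocount (0.99); Car2 stays between 0.97 and 1.04.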

How the data were processed

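Each of the 2 arrays was hybridised with biotin-labelled cRNA, per the labels' protocols. The authors computed 1 linear signal intensity for each probe set, with MAS5 according to the submitters' processing notes. For its version, and for any detection calls or filters, nothing was stated in the sources used. The mean without the top and bottom 2% was 150.0 on both arrays, and the medians were 24.1 and 24.0. The number of arrays limits the precision.

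Of 45101 probe sets, 34958 had 1 gene symbol in the platform annotation; those with several or none and the 64 control probe sets were left out. No value was renormalized. Signals under the floor were set to it before log2, and a ratio with 1 array under it is a bound. The robust SD (1.4826 times the median absolute deviation) was taken over probe sets above the floor on both arrays and within 0.5 of the mean log2 signal. Close to the floor this filter cuts the spread short. Python 3.11.15, pandas 2.3.3 and statsmodels 0.14.6 were used, and the procedure was tested on simulated data. That simulation placed changes only in genes well above the floor. It thus does not cover signals as low as those of Car4 or changes as small as that of Car2.

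The members, 18 gene lists and alternatives were chosen with earlier results of these data known. Named were every member, the other family genes, transporters and hypoxia targets at least 2-fold apart or among the 3 largest ratios of their list, the 2 brightest and all 2-fold markers of each list, and the 3 genes nearest to Car4; genes beside these were chosen after their values were seen. Some listed genes were not analysed here. Alternatives were floors at the 40th and 60th percentiles, a pseudocount, the median over probe sets, leaving out suffixed probe sets, quantile normalization and loess.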

Additional observations from a re-analysis of the deposited data

How the results depend on the processing

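Results that moved by more than their spread, or by over 1.5 times for a count, were few. With the floor at the 60th percentile the Car4 ratio was a bound of 0.71 and 1 member, Car2, was 2-fold higher; with the pseudocount the Car4 ratio was 0.99 and the count was 0. With the median over probe sets Car3 moved to 0.72. Without suffixed probe sets 0 transporters were 2-fold apart, since Slc4a1 was then at 0.95. The other 81 of the values recomputed stayed within these limits, and no member was 2-fold lower in any setting run. The count of all genes at least 2-fold higher and lower was 210 and 136 for a 40th percentile floor, 41 and 33 for a 60th percentile one, and 64 and 41 with the pseudocount, against 104 and 66. Quantile normalization and loess gave member ratios that all round to within 0.02 of those reported. No paired analysis was possible because each group was 1 array. Signals near the floor limit what Car4, Car7, Car12, Car13 and Car15 can show.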
